A study of Homo sapiens with 6 samples.

Results

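The transcripts described here are those of 10 translation elongation and termination factors, measured by RNA sequencing in MOLM13 cells. The members were taken by gene symbol: EEF1A1, EEF1B2, EEF1D, EEF1G, EEF1E1, EEF2, EEF2K, ETF1, GSPT1 and ABCE1. Each of the 10 symbols was found among the 56305 gene rows of the count files. MOLM13 is an acute myeloid leukemia (AML) cell line that carries a FLT3 internal tandem duplication and a rearrangement between chromosomes 9 and 11. All libraries share this background. Cells received DMSO, the solvent control (3 libraries), or 1 μM ZW27941 (3 libraries), both for 24 h. ZW27941 is a chimeric degrader that brings the m6A methyltransferase METTL3 to the VHL ubiquitin ligase. The model is a single cell line at 1 dose and 1 time. Neither an inactive analog nor a METTL3 inhibitor was sequenced in the libraries analysed here. Nothing in the labels says whether replicates were separate cultures, so p-values measure the spread between these libraries, which may be technical.

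Elongation factors carry out the repeated step of protein synthesis. The GTPase eEF1A, encoded by EEF1A1, brings each aminoacyl-tRNA to the ribosome, the eEF1B complex recharges it with GTP, and eEF2 moves the ribosome along by a codon. At a stop codon eRF1 (ETF1) and the GTPase eRF3a (GSPT1) release the finished chain, and the ATPase ABCE1 splits the ribosome for another round. Many transcripts of this machinery begin with a C and a run of pyrimidines, the 5′ terminal oligopyrimidine (TOP) sequence, through which mTOR signalling controls their translation.

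The RefSeq start sites were searched for such a beginning, and 4 of them are printed: the 3 members with such a listed start, and ABCE1, a member without one. Each window runs from 10 bases before the first transcribed base to its 20th base, 5′ to 3′ on the gene's strand (GRCh38.p14). Capitals mark a C at the first transcribed base with the C or T bases that follow it without a break.
EEF1A1: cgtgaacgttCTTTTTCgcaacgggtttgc
EEF1B2: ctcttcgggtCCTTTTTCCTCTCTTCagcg
EEF2: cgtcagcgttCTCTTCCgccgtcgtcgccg
ABCE1: gcggctgggcaccgccattttggccggtgg

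The windows lie at chr6:73521013-73521042 (minus strand, EEF1A1), chr2:206159885-206159914 (plus strand, EEF1B2), chr19:3985444-3985473 (minus strand, EEF2) and chr4:145098301-145098330 (plus strand, ABCE1). RefSeq promoters were found for 9 of the 10 members (not EEF1D), with 12 start sites in all. The start had a first base C followed by at least 4 bases of C or T, read on the gene's strand only, at 3 of these 12 sites. The pyrimidine run, its first C included, was 7 bases in EEF1A1, 16 bases at the downstream of the EEF1B2 starts and 7 bases in EEF2. The listed starts of EEF1G, EEF1E1, EEF2K, ETF1, GSPT1 and ABCE1 and the upstream EEF1B2 start did not hold these letters. Among all 35116 RefSeq promoters of this length 4.07% held them, and among those of tested cytosolic ribosomal protein genes 49 of 84 (58.3%) did. A match of letters is a description of the window and not a measured start of transcription in MOLM13. A listed start without these letters does not show that a transcript lacks a TOP sequence, and EEF1D could not be searched.

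The DMSO libraries held 143454176 to 153825333 counts on genes and the ZW27941 libraries 143621822 to 178744976, more than the raw reads for a sample that the labels' protocol names, for a reason that was not tested. Reads tallied to no gene were 37.5% to 38.8% in DMSO and 37.4% to 39.8% on ZW27941. Within this total the reads on no annotated feature did not overlap, at 11.9% to 12.4% in DMSO and 10.5% to 11.4% on ZW27941. Reads not aligned overlapped, at 15.5% to 16.6% and 16.2% to 18.1%. Alignments to several places reached 5.25% in ZW27941 replicate 3, against 3.63% to 4.07% in the other 5 libraries. Mitochondrially encoded rows took 2.59% to 2.72% of counts in DMSO and 2.90% to 2.99% on ZW27941, so these shares did not overlap. Each of 10 myeloid and MOLM13 marker genes was above 1 CPM (gene counts scaled to a common library size after TMM normalization) in each library. Their sum was 2214 to 2269 CPM in DMSO and 2447 to 2515 CPM on ZW27941. Most of this difference was in LYZ (938 to 998 CPM and 1126 to 1196 CPM). On the log2 scale LYZ rose by 0.27, CSF1R by 0.40, SPI1 by 0.11, ITGAM by 0.10 and MPO by 0.093. Their edgeR quasi-likelihood adjusted p ran from 4.69e-10 (CSF1R) to 0.0122 (MPO). CD14, at 1.07 to 1.71 CPM, fell by 0.39 on the same scale (edgeR quasi-likelihood adjusted p = 0.0112). In this test CD33, FLT3, MEIS1 and HOXA9 had an adjusted p from 0.1075 (HOXA9) to 0.626 (MEIS1). The sum of 3 T cell markers was at most 0.332 CPM and that of 3 erythroid markers at most 0.0070 CPM, with HBA1 and HBB at 0. The sum of 3 B cell markers was 1.90 to 2.26 CPM and 1.63 to 1.82 CPM, and that of 3 epithelial markers 12.6 to 12.8 CPM and 9.80 to 10.8 CPM, nearly all KRT18 with EPCAM near 0. Of 3 endothelial markers CDH5 was at 0 and PECAM1, which myeloid cells also express, gave nearly all of 255 to 265 CPM and 324 to 332 CPM. METTL3 mRNA averaged 121.5 CPM without ZW27941 (SD 1.17, n = 3) and 123 CPM with it (SD 4.96, n = 3), and since ZW27941 acts on the protein this level checks no label. The part of these shifts in the results below was not tested.

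On ZW27941 the transcripts of EEF1A1, of the exchange factor subunits EEF1B2 and EEF1D and of the recycling factor ABCE1 fell, with changes in mean CPM of −5.46% (EEF1D) to −9.42% (ABCE1). No tested member was called higher, EEF2 sat slightly lower without passing the test, and the release factors ETF1 and GSPT1 differed little. Of the 10 members 9 passed the expression filter and EEF1G did not. At a threshold of 0.05 on p-values adjusted after Benjamini and Hochberg over the 20399 genes tested (edgeR quasi-likelihood), 4 of the 9 were called lower and 0 higher. At an unadjusted p under 0.05 the counts were again 4 and 0, and DESeq2 called 5 lower and 0 higher. Over all genes tested 13.8% were called lower, 16.3% higher and 30.1% in either direction. A share called depends on precision as well as change, here and in the lists below. The median standard error (SE) of the log2 fold change was 0.060 over all genes tested, and those of the members ran from 0.024 (GSPT1) to 0.070 (EEF1E1). The 3 ZW27941 libraries lay below all 3 DMSO libraries for 5 members and above them for 1, where over all genes tested the shares were 19.9% and 21.7% (41.6% in either direction). The median log2 fold change of the 9 was −0.052, against −0.0019 for all genes tested. Without ZW27941 replicate 1, or without ZW27941 replicate 2, only EEF1A1 and ABCE1 kept their call among the members. In a bulk measurement less RNA per cell and fewer cells that express a gene cannot be told apart.

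**Figure D1:**
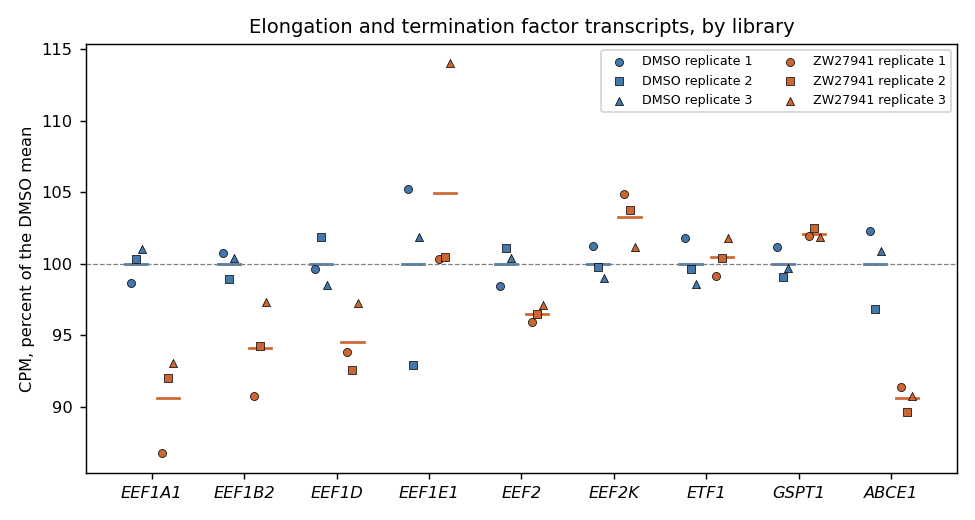
CPM of each tested factor in each library (y axis, percent of the gene's DMSO mean; blue DMSO, orange ZW27941, marker shape the replicate, short line the group mean of 3). EEF1A1, EEF1B2, EEF1D, EEF2 and ABCE1 had all ZW27941 points below all DMSO points, and GSPT1 had them above.

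EEF1A1 (GRCh38, chromosome 6, 73515750 to 73523797, minus strand) was the gene with the most counts in each library. It stood at 24796, 25229 and 25395 CPM in the DMSO libraries and at 21802, 23136 and 23395 CPM on ZW27941. All treated libraries were below all controls, and ZW27941 replicate 1, the library with the most counts, was the lowest. The log2 fold change was −0.14 (SE 0.030, edgeR quasi-likelihood adjusted p = 0.00108), a change in mean CPM of −9.40%. As a share of all gene counts EEF1A1 went from 2.48% to 2.52% in DMSO to 2.20% to 2.33% on ZW27941. Without ZW27941 replicate 1 the log2 fold change was −0.11, and the gene was called in each of the 6 fits that left out 1 library.

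EEF1B2 and EEF1D encode the alpha and delta subunits of eEF1B, both of which exchange GDP for GTP on eEF1A. EEF1B2 (chromosome 2, 206159585 to 206162928) was at 719.95, 707 and 717 CPM in DMSO and at 649, 674 and 696 CPM on ZW27941. EEF1D (chromosome 8, 143579697 to 143599541) was at 399, 408 and 394 CPM in DMSO and at 376, 371 and 389.55 CPM on ZW27941. For both genes the groups did not overlap, and the nearest libraries of the groups were close to each other. The log2 fold changes were −0.088 for EEF1B2 (SE 0.027, edgeR quasi-likelihood adjusted p = 0.0162) and −0.081 for EEF1D (SE 0.026, adjusted p = 0.0195). These calls were close to the threshold. EEF1B2 was not called in 4 of the 6 fits that left out a library, those without DMSO replicate 1 or 3 or ZW27941 replicate 1 or 2 (edgeR quasi-likelihood adjusted p from 0.0573 to 0.105). EEF1D was not called without DMSO replicate 2 or ZW27941 replicate 1 or 2 (edgeR quasi-likelihood adjusted p from 0.0577 to 0.124). Both kept their direction in each fit. In GENCODE 29 the snoRNA SNORA41 and the RNA RF02271 together share 16.4% of the EEF1B2 exonic bases on its strand, and genes on the other strand share 34.0% of those of EEF1D. Of the sharing genes SNORA41 (6.89% of EEF1B2) and TIGD5 (2.78% of EEF1D) have rows in the count files. RF02271, AC067930.6 (31.25% of EEF1D) and AC067930.2 have none under these symbols.

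EEF1G, which encodes the gamma subunit that holds the eEF1B complex together, is listed at 0 counts in all 6 libraries. Such a row gives no comparison for this subunit. In GENCODE 29, EEF1G lies at chromosome 11, 62559601 to 62574086, on the minus strand, and 2714 of its 2716 exonic bases (99.9%) also belong to exons of the same-strand gene AP002990.1 (62559603 to 62591531). Only 2 exonic bases were its own. The count files, which keep rows at 0, have no row with the symbol AP002990.1. Whether that gene was in the counted annotation is therefore not known. HTSeq can set aside a read that fits the exons of more than 1 gene, and its tally of such ambiguous reads held 2.71% to 2.80% of reads in DMSO and 2.69% to 2.76% on ZW27941. Of 84 protein-coding genes in the files with at least 99% of their exonic bases shared in this way, 76 (90.5%) were at 0 in all libraries. Among 16052 protein-coding genes that shared no exonic base on their strand, 2224 (13.9%) were at 0. Both sets took sharing from GENCODE 29, whether or not the sharing gene has a row in the files. The annotation and counting mode used for the deposited counts are not given in the sources used here, and whether EEF1G reads went to the ambiguous tally was not tested. None of the 8 EEF1G pseudogene rows held more than 14 counts in a library.

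EEF1E1 encodes AIMP3, a scaffold subunit of the multi-tRNA synthetase complex related to the eEF1B subunits. It had only 749 to 974 counts in a library. Its level was 5.62, 4.97 and 5.44 CPM in DMSO and 5.36, 5.37 and 6.09 CPM on ZW27941, with overlap between the groups. The log2 fold change was 0.070 (95% CI −0.075 to 0.21, edgeR quasi-likelihood adjusted p = 0.497). Without ZW27941 replicate 3, the highest library, it was 0.0037. EEF1E1 (chromosome 6, 8073360 to 8102578, minus strand) shares 393 of 2107 exonic bases (18.7%) with the readthrough gene EEF1E1-BLOC1S5, whose row is at 0 in all libraries.

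EEF2 encodes the translocase eEF2, and EEF2K the kinase that phosphorylates eEF2 and slows elongation. EEF2 (chromosome 19, 3976056 to 3985469, minus strand) was at 6392, 6564 and 6517 CPM in DMSO and at 6224, 6262 and 6303 CPM on ZW27941. All treated libraries were below all controls, by a small margin. The log2 fold change of −0.052 did not pass (95% CI −0.11 to 0.0025, edgeR quasi-likelihood adjusted p = 0.146), while DESeq2's Wald test gave −0.053 with an adjusted p of 0.0208 and upper quartile normalization −0.075 with an edgeR adjusted p of 0.0376. Its kinase gene EEF2K (chromosome 16, 22206282 to 22288732, plus strand) was at 76.2, 75.1 and 74.5 CPM in DMSO and at 78.96, 78.1 and 76.2 CPM on ZW27941. Here the groups overlapped, with a log2 fold change of 0.047 (95% CI −0.0067 to 0.10, edgeR quasi-likelihood adjusted p = 0.186).

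The factors of termination did not pass the test in either direction. ETF1 (chromosome 5, 138506095 to 138543300, minus strand) was at 122, 119 and 118 CPM in DMSO and at 118, 119.82 and 121.5 CPM on ZW27941, an overlap of nearly the whole range. Its log2 fold change was 0.0064 (95% CI −0.045 to 0.058, edgeR quasi-likelihood adjusted p = 0.876), and the sign turned under upper quartile normalization and in 2 of the fits without 1 library. GSPT1 (chromosome 16, 11868128 to 11916082, minus strand) was at 152, 149 and 149.6 CPM in DMSO and at 153, 154 and 153 CPM on ZW27941. The treated libraries lay above the controls by a margin of under 2 CPM, with a log2 fold change of 0.030 (95% CI −0.019 to 0.079, edgeR quasi-likelihood adjusted p = 0.371). GSPT2, the eRF3b paralog, had 0 counts in each library, which allows up to 3 counts, or 0.0166 to 0.0209 CPM. This limit covers counting error only.

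ABCE1, which recycles the ribosome after termination, showed the smallest p of the members. The gene (chromosome 4, 145097932 to 145129179, plus strand) was at 149.8, 142 and 148 CPM in DMSO and at 134, 131 and 133 CPM on ZW27941. The treated libraries were within 3 CPM of each other and below the lowest control. The log2 fold change was −0.14 (SE 0.026, edgeR quasi-likelihood adjusted p = 0.000203), and it ran from −0.16 to −0.13 with the call kept in each of the 6 fits without 1 library. On the other strand 745 of its 6265 exonic bases (11.9%) are also exons of other genes, among them ANAPC10 and OTUD4, and the strand setting of the counts is not given in the sources used here.

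**Figure D2:**
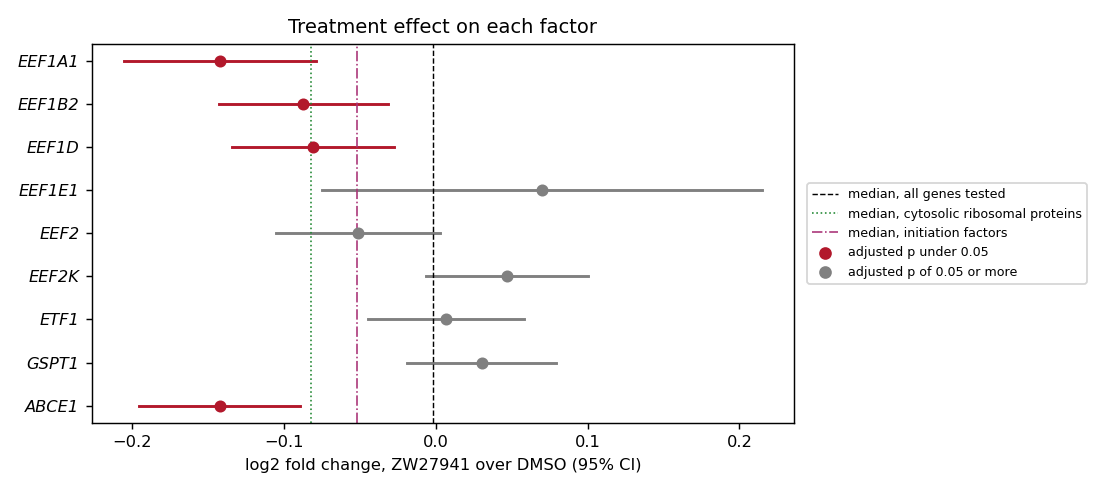
Log2 fold change of each tested factor, ZW27941 over DMSO, with its 95% confidence interval from edgeR's quasi-likelihood fit (red, adjusted p under 0.05; grey, 0.05 or more). The vertical lines mark the medians of all genes tested (−0.0019) and of rows matching initiation factor (−0.052) and cytosolic ribosomal protein (−0.082) symbols. EEF1A1 and ABCE1 both sit at −0.14.

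Levels between genes were set side by side per kilobase of the longest GENCODE 29 principal transcript. In DMSO the order of these levels was EEF1A1 (5661 CPM per kb), EEF2 (2051), EEF1B2 (651), EEF1D (168), GSPT1 (76.5), ABCE1 (37.4), ETF1 (31.9), EEF2K (10.2) and EEF1E1 (4.96). On ZW27941 the order was the same, from 5129 CPM per kb for EEF1A1 to 5.21 CPM per kb for EEF1E1. ABCE1 and ETF1 were the closest neighbours, at 33.8 and 32.04 CPM per kb on ZW27941. Per kilobase of all merged exons, which counts rare isoforms too, GSPT1 (18.7 CPM per kb) came below ETF1 (25.9) and ABCE1 (23.4) in DMSO, so the order of these 3 depends on the length used.

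Ratios within a library need no normalization and show whether members moved apart. The log2 ratio of EEF1A1 to EEF2 counts was 1.96, 1.94 and 1.96 in DMSO and 1.81, 1.89 and 1.89 on ZW27941. The groups did not overlap, and the mean difference was −0.091 (two-sided exact permutation p = 0.1, 0.25 after Benjamini-Hochberg adjustment over 5 ratios). A p of 0.1 is the smallest that 3 against 3 libraries can give. The ratio of EEF1B2 to EEF1A1 was higher by 0.055 on ZW27941 with no overlap (exact permutation p = 0.1, adjusted 0.25). EEF1D to EEF1A1 differed by 0.062 with overlap (exact permutation p = 0.3, adjusted 0.375). The ratio between the exchange factors EEF1B2 and EEF1D went from a mean of 0.84 to 0.83 (exact permutation p = 0.7, adjusted 0.7), a difference of −0.0068 beside an SD of 0.037 in each group. GSPT1 to ETF1 differed by 0.024 with overlap (exact permutation p = 0.2, adjusted 0.333). Ratios with EEF1G could not be formed from a row at 0.

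EEF1A1 and its exchange factors have processed pseudogenes, and reads could be split between the copies. The 39 EEF1A1 pseudogene rows together held 6.62%, 6.42% and 6.45% of the reads on EEF1A1 and these rows in DMSO, and 7.11%, 6.80% and 7.05% on ZW27941. These shares did not overlap, with the higher ones on ZW27941. Most of these were on EEF1A1P5, at 1535, 1494 and 1520.3 CPM in DMSO and 1450.4, 1486 and 1512 CPM on ZW27941. That row overlapped between groups, with a log2 fold change of −0.032 (SE 0.026, edgeR quasi-likelihood adjusted p = 0.383). Of the 11 EEF1A1 pseudogene rows tested, 0 were called by edgeR in either direction, and 3 had an unadjusted p under 0.05 (EEF1A1P13 and EEF1A1P9 higher, EEF1A1P30 lower). With all pseudogene rows added to their member, EEF1A1 had a log2 fold change of −0.13, EEF1B2 of −0.085 and EEF1D of −0.079, and each stayed called (edgeR quasi-likelihood adjusted p = 0.00163, 0.0208 and 0.0220). The tally of alignments to several places names no gene, so this sum cannot cover reads of these genes held there. EEF1B2 pseudogene rows held 5.69% to 6.20% of the reads on EEF1B2 and its copies, and those of EEF1D 0.546% to 0.802%. Among the EEF1D rows EEF1DP4 rose, from 158 to 190 counts in DMSO to 253 to 291 on ZW27941 (log2 fold change 0.52, edgeR quasi-likelihood adjusted p = 0.00198). EEF1DP7 fell, from 23 to 31 counts to 7 to 15 (log2 fold change −1.38, edgeR quasi-likelihood adjusted p = 0.00485). These 2 rows move opposite ways and together hold under 1% of the EEF1D reads.

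**Figure D3:**
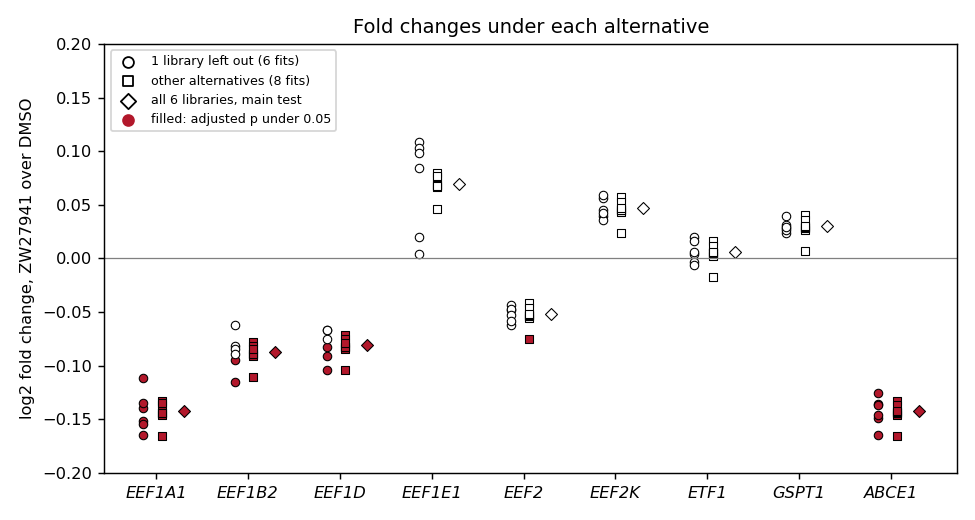
Log2 fold change of each factor (y axis, ZW27941 over DMSO) in the main test (diamond), in the 6 fits that each left out 1 library (circles) and under the 8 other alternatives (squares), filled where the adjusted p was under 0.05. EEF1A1 and ABCE1 are filled throughout, EEF1B2 and EEF1D lose the call in 4 and 3 of the fits without 1 library, and EEF2 gains it in 2 of the other alternatives.

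Of 24 listed paralogs, partners and modifying enzymes of these factors 22 were tested, and 13 were not called. Of the rest 5 were called lower and 4 higher (22.7% and 18.2%, beside 13.8% and 16.3% of all genes tested), with a median log2 fold change of −0.0070 over the 22. METTL13, which methylates eEF1A, was at 77.5, 81.6 and 77.6 CPM in DMSO and 91.0, 91.6 and 96.0 CPM on ZW27941. All treated libraries were well above the controls, a log2 fold change of 0.24 (SE 0.028, edgeR quasi-likelihood adjusted p = 1.98e-06). METTL21B (EEF1AKMT3), another eEF1A methyltransferase, rose by 0.19 (edgeR quasi-likelihood adjusted p = 0.000647). N6AMT1, which methylates eRF1 together with TRMT112, was at 11.7, 11.4 and 10.5 CPM in DMSO and 9.22, 9.04 and 8.93 CPM on ZW27941. Its log2 fold change of −0.30 (SE 0.050, edgeR quasi-likelihood adjusted p = 9.91e-05) was the lowest on the list, while TRMT112 had 0.029 and was not called.

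In the hypusine pathway, which modifies the elongation factor eIF5A, EIF5A had a log2 fold change of −0.091 and DHPS, the enzyme of the opening step, of −0.12, while DOHH, which completes hypusine, had 0.16. All 3 were called (edgeR quasi-likelihood adjusted p = 0.00969, 0.000608 and 0.00103). EIF5A lost its call without DMSO replicate 2 or ZW27941 replicate 2. Of the diphthamide genes, which modify a histidine of eEF2, DPH1 fell by 0.13 and DPH3 rose by 0.15 on the log2 scale (edgeR quasi-likelihood adjusted p = 0.00470 and 0.00901), DPH3 not without DMSO replicate 2. VARS, the valyl-tRNA synthetase that binds eEF1B, fell by 0.13 on the log2 scale (edgeR quasi-likelihood adjusted p = 0.000681). EEF1A2, the muscle and neuron paralog of EEF1A1, was at 3.56 to 3.62 CPM in DMSO and 3.71 to 3.998 CPM on ZW27941, and its log2 fold change of 0.091 was not called (SE 0.071, edgeR quasi-likelihood adjusted p = 0.372).

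Of 12 tested factors that rescue stalled ribosomes or recycle their subunits, 6 were called lower (50.0%, beside 13.8% of all genes tested) and 0 higher by edgeR, the median log2 fold change was −0.066, and at an unadjusted p under 0.05 the counts were 7 and 1 (DESeq2, 7 and 0). Without DMSO replicate 2, or without ZW27941 replicate 1, 3 were called lower. The SEs on this list ran from 0.025 (EIF2D) to 0.042 (PELO), below the median of 0.060 over all genes tested. HBS1L, an eRF3-like GTPase, was at 83.7, 81.8 and 83.9 CPM in DMSO and 76.1, 75.0 and 75.1 CPM on ZW27941. The groups were well apart, with a log2 fold change of −0.14 (SE 0.025, edgeR quasi-likelihood adjusted p = 0.000186). Its partner PELO, an eRF1-like protein, had a log2 fold change of 0.10 that did not pass (SE 0.042, edgeR quasi-likelihood adjusted p = 0.0645). With library size as the only scaling PELO was called higher (0.11, edgeR quasi-likelihood adjusted p = 0.0426), which made 1 higher call on this list. The translational GTPase gene GTPBP1 had a log2 fold change of −0.11, and MCTS1 and EIF2D, which help to recycle the small subunit, had −0.10 and −0.070. ANKZF1 and TCF25, which act on chains stalled on the large subunit, had −0.094 and −0.085 (all 5 called, edgeR quasi-likelihood adjusted p from 0.00577 to 0.0373). HBS1L and GTPBP1 were called in each fit without 1 library, and ANKZF1 and TCF25 in 4, MCTS1 in 3 and EIF2D in 1 of the 6. EIF2D was also not called with a replicate block, with library size only or with no filter on low counts (edgeR quasi-likelihood adjusted p = 0.0662, 0.0724 and 0.0957).

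**Figure D4:**
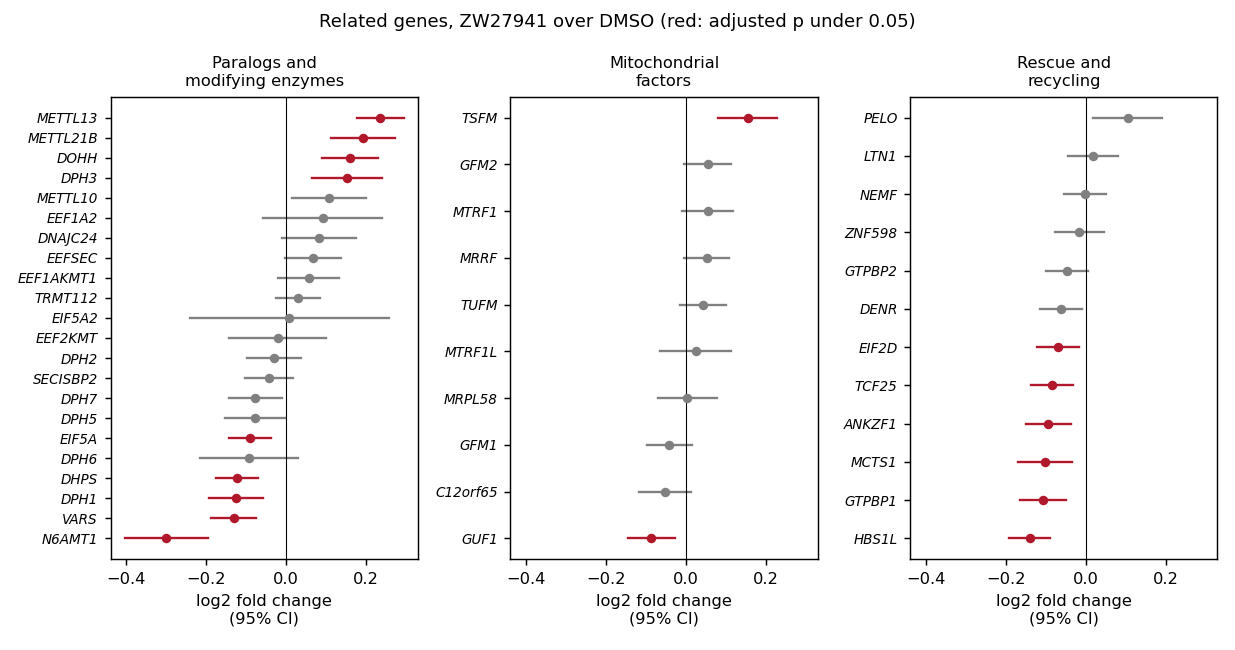
Log2 fold change (x axis, ZW27941 over DMSO) with 95% confidence interval for each tested gene of 3 lists of related genes (red, adjusted p under 0.05 in edgeR's quasi-likelihood test). Modifying enzymes spread from −0.30 (N6AMT1) to 0.24 (METTL13), and 6 of 12 rescue and recycling genes are called lower.

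Of 10 tested genes for mitochondrial elongation, termination and recycling 1 was called lower and 1 higher. These shares of 10% each stand beside 13.8% and 16.3% of all genes tested. The median log2 fold change was 0.033. TSFM, the exchange factor of the mitochondrial elongation factor TUFM, was at 26.4, 27.2 and 24.8 CPM in DMSO and 28.3, 28.9 and 30.1 CPM on ZW27941, a log2 fold change of 0.15 (SE 0.036, edgeR quasi-likelihood adjusted p = 0.00237). GUF1, a GTPase of mitochondrial translation, had −0.087 (edgeR quasi-likelihood adjusted p = 0.0226) and lost its call without DMSO replicate 1 or 3 or ZW27941 replicate 2 or 3, and with library size only (−0.077, edgeR quasi-likelihood adjusted p = 0.0528). TUFM had 0.042 and the translocase gene GFM1 −0.042, both with intervals that included 0.

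The same counts were taken for the ribosomal proteins and the initiation factors, the other main parts of the translation machinery. Among rows matching cytosolic ribosomal protein symbols, 50 of 85 tested were called lower (58.8%) and 0 higher by edgeR (62 and 1 at an unadjusted p under 0.05), with a median log2 fold change of −0.082. Among rows matching initiation factor symbols 19 of 42 were called lower (45.2%) and 7 higher (16.7%), with a median of −0.052. Both lists were taken by symbol, so genes with other roles may be among them. Of the elongation and termination factors 4 of 9 (44.4%) were called lower and 0 higher. Over all genes tested 13.8% were called lower and 16.3% higher, with a median of −0.0019. The differences between these lists were not tested.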

How the data were processed

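RNA of MOLM13 cells (DMSO or ZW27941, n = 3 each) had been sequenced as paired reads on a NovaSeq. For each library the deposited values are raw HTSeq counts by gene symbol. Per the submitters' processing notes HISAT2, SAMtools 1.19.2 and HTSeq 2.0.3 were used with hg38. Annotation, strand setting and counting mode are not given in the sources used here. HTSeq's tallies of reads given to no gene were left out of library sizes and tests (their shares stand in the report).

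Counts were fitted in R 4.3.3 with edgeR 4.0.16 (TMM, filterByExpr, quasi-likelihood test, Benjamini-Hochberg adjustment over 20399 genes), with no covariate. The common biological coefficient of variation was 3.11%. Standard errors are the log2 fold change over the square root of F. Ratios were tested with an exact permutation test over libraries, two-sided. DESeq2 1.42.0 (NA values kept), 3 other normalizations, 2 other filters, a replicate block, pseudogene rows added to their member and each library left out were alternatives.

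All 10 members were named; from lists of related genes, the called genes with the lowest p (at most 5 in each direction) and the paralogs EEF1A2 and GSPT2 were named by rule. TRMT112, PELO, TUFM, GFM1, EIF2D and the pseudogenes were named after their values were seen, as partners or exceptions. EEF1AKMT4 is listed and was not found in the files. The members and lists were chosen with earlier results of these data known. Positions and exon sharing came from GENCODE 29 (GRCh38), which may differ from the annotation that was counted, and start sites from RefSeq (GRCh38.p14). On simulated counts for ZW27941 against DMSO over 20399 genes, 63 of 63 genes of at least 1 CPM changed 2-fold were recovered, and 62 of 72 changed 1.25-fold, with 7 false calls in all. The differences measured for the members were all smaller than 1.25-fold, and recovery at such sizes was not tested.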

Additional observations from a re-analysis of the deposited data

How the results depend on the processing

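EEF1A1 and ABCE1 were called lower under all 14 alternatives, with log2 fold changes from −0.17 to −0.11 and from −0.17 to −0.13, and no member was called higher under any of them. The 4 members called lower were 5 with DESeq2 and with upper quartile normalization, where EEF2 joined them (−0.053 and −0.075), and 2 to 4 when each library was left out (2 without ZW27941 replicate 1 or 2). In those 6 fits EEF1B2 ran from −0.11 to −0.062 and EEF1D from −0.10 to −0.067, without a call in 4 and 3 of them. ETF1 turned to −0.017 with upper quartile normalization and ran from −0.0058 to 0.020 without 1 library. The cause of these shifts was not tested. Upper quartile normalization moved the median of all genes tested to −0.025, and called 3643 genes lower and 2644 higher in place of 2816 and 3333. Over all genes tested together, the deviations of same-numbered libraries were hardly correlated (−0.012, 0.012 and 0.017). Correlations over all genes cannot exclude a pairing that shows in single genes. A replicate block changed no member's call (4 lower, 0 higher), and all genes called were 2767 lower and 3170 higher. With the block the SE was 0.023 for EEF1A1 and 0.028 for ABCE1, against 0.030 and 0.026 without it. In edgeR's quasi-likelihood test with the block, the adjusted p was 2.81e-05 for EEF1A1 and 0.0987 for EEF2. With 3 libraries a group, changes of a few percent sat near the limit of the test.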
